A study of Mus musculus with 4 samples.

Results

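Compact super enhancers (SEs) of mouse neural stem cells (NSCs) are the SEs shorter than 15 kb. Of 8089 enhancer regions ranked in NS-5 NSCs, 445 were SEs, and 218 of these were compact. The other 227 SEs, of 15 kb or more, are called long SEs here, and the remaining 7644 regions are typical enhancers. The paper reports the same number of SEs but more typical enhancers, a difference that was not settled. The members were chosen by measured values, namely a length below 15000 bp and a Med1 minus IgG signal at or over the limit that parts SEs from typical enhancers, which lies between 3249.8 and 3257, so Med1 signal, IgG signal and length are given as descriptions only. The series holds ChIP-seq of 4 samples, 1 each for Med1, Carm1, Jmjd1c and IgG as control. All 4 came from untreated NS-5 cells, a mouse NSC line grown with EGF and FGF2 at 10 ng/mL each. Each antibody has a single sample, so replicate error cannot be given and samples were not compared by any test.

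Mediator is a large coactivator complex that passes signals from transcription factors at enhancers to RNA polymerase II at promoters, and Med1 is one of its subunits. Enhancers with very high Mediator content are called SEs, and in many cell types they lie near genes of cell identity. Most SEs are clusters of enhancers, but a short region can also reach the signal of an SE if its Mediator density is high. Carm1 is an arginine methyltransferase and Jmjd1c is a Jumonji-family protein related to histone H3K9 demethylases, and both act as coactivators. The regions come from Ep300 and H3K27ac peaks, which mark active enhancers, joined by the ROSE algorithm when they lie close together. Each joined enhancer is a constituent of the region. ROSE gives each region a total signal, in which reads are scaled by the mapped reads of the library and added up along the region, so that it grows with length. Signal per kb is that value divided by the length of the region.

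The DNA at sites shared by Carm1 and Jmjd1c in compact SEs is shown first, because these paired sites carry the comparison of the cofactors below. A pair is a Carm1 and a Jmjd1c site with midpoints within 200 bp of each other. Windows were taken from 10 compact SEs that held a pair and lay near a gene of the lists described below. They are those of highest Med1 minus IgG signal, except that the region near Sall3 at rank 161 was left out. The closest pair of each was taken, and 201 bp around its middle were read from mm9, forward strand, 5′ to 3′. The windows lie near Kif2c, a mitotic kinesin (chr4:116862592-116862792), Slc1a3, the glial glutamate transporter GLAST (chr15:8609684-8609884), Btg2, an antiproliferative gene (chr1:135959363-135959563), Etv5, an ETS factor of FGF signalling (chr16:22517828-22518028), and Scd2, a stearoyl-CoA desaturase (chr19:44386537-44386737). Further windows lie near Cdkn1a, the cell cycle inhibitor p21 (chr17:29187835-29188035), Klf12, a Kruppel-like factor (chr14:100343524-100343724), and Mki67, which encodes the proliferation marker Ki-67 (chr7:143238496-143238696). Of the 10 windows 8 are shown, the first 6 in signal order, and Klf12 and Mki67 for their motifs, a choice made after the motifs were seen. Capitals mark the SOX motif (ACAAAG or ACAATG), the E-box (CAGNTG) and the core of the NFI motif (TTGGC), searched on both strands.
Kif2c: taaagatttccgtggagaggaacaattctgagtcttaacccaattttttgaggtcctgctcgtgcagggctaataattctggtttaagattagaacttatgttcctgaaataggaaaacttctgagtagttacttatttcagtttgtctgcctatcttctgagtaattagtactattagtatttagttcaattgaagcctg
Slc1a3: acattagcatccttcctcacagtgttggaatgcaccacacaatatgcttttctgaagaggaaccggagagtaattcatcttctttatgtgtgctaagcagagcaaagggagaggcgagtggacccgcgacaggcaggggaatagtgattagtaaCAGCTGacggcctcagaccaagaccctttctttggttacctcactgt
Btg2: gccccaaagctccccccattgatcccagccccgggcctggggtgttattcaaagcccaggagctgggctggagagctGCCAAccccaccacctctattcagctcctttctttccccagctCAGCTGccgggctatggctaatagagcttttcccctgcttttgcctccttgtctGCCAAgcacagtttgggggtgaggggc
Etv5: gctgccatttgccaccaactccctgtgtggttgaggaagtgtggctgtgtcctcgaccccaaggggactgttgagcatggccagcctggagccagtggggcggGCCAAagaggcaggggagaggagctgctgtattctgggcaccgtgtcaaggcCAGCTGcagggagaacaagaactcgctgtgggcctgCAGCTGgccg
Scd2: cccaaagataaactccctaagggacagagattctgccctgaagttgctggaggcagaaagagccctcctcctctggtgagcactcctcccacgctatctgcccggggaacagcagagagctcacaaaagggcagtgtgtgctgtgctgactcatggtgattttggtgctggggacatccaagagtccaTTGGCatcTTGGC
Cdkn1a: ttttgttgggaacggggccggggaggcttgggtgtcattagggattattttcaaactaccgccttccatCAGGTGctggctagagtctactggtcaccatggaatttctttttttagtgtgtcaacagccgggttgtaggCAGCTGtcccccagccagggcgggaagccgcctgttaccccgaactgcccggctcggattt
Klf12: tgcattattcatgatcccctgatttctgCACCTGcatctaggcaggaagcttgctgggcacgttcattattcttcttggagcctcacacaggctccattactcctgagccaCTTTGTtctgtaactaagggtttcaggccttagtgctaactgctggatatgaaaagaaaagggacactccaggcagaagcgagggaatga
Mki67: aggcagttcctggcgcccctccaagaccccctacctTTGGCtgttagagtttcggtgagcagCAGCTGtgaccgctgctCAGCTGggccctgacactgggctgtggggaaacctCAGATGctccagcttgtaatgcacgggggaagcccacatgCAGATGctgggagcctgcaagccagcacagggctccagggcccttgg

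An E-box was present in 6 of the 10 windows, the NFI core in 6 and the SOX motif in 1. The Mki67 window held 4 E-boxes and 1 NFI core. The Btg2 window held 2 NFI cores on either side of an E-box. The Klf12 window was the one with a SOX motif, on the reverse strand, beside 1 E-box. The Kif2c window held none of the 3, and its G or C content was 35.3%, against 60.2% at Btg2 and 63.2% at Etv5. A match of these letters is a description of the sequence and shows no binding.

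Over all 147 pairs in compact SEs, which fell in 129 regions, 45.6% had a SOX motif (95% Wilson interval 37.7 to 53.6%), 61.2% an E-box (53.2 to 68.7%) and 59.9% the NFI core (51.8 to 67.4%). In long SEs the shares over 218 pairs were 42.7%, 54.1% and 52.3%, in the same order of motifs. In typical enhancers they were 46.2%, 58.1% and 57% over 1375 pairs. The intervals of compact SEs contain the value of typical enhancers for each of the 3 motifs. All 3 motifs occurred together in 17.7% of the windows of compact SEs (12.4 to 24.7%), against 10.6% in long SEs (7.13 to 15.3%) and 15.9% in typical enhancers. In 5 of the 147 windows motifs of different kinds shared a base. Windows of 201 bp at the middle of a compact SE, with or without a site, held the 3 motifs in 27.5%, 45% and 36.2%, and windows at the middle of all 8089 regions in 31.1%, 47.9% and 39.1%. The G or C content of the pair windows had a median of 53.7% in compact SEs, 53% in long SEs and 50.2% in typical enhancers, and its part in the motif shares was not tested.

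By the rule, compact SEs differed from long SEs in length and from typical enhancers in Med1 signal, and their values are given as a description. The median Med1 signal per kb was 747 in compact SEs (95% interval from order statistics over regions 678 to 805), against 356 in long SEs and 359 in typical enhancers, ratios of 2.1 and 2.08. Their quartiles were 546 and 1071 and the extremes 301 and 10382. The limits alone require a Med1 minus IgG signal of at least 217 per kb in any compact SE, so part of this density follows from the rule. The total Med1 signal had a median of 5699.9 in compact SEs, 8358 in long SEs and 724 in typical enhancers. Median length was 8666 bp in compact SEs, 23912 bp in long SEs and 1759 bp in typical enhancers. Against typical enhancers, the median total signal of compact SEs was thus 7.87 times as high, the median length 4.93 times and the median signal per kb 2.08 times. Together the compact SEs held 12.6% of the Med1 signal of all regions on 5.89% of their length, and 7.99% of the IgG signal.

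IgG signal per kb was also higher in compact SEs than in the other regions. The median IgG signal per kb was 168 in compact SEs (156 to 181), 108 in long SEs and 132 in typical enhancers. Med1 exceeded IgG by a median factor of 4.35 in compact SEs, with a lowest value of 2.47 and a highest of 49.3. In 41 compact SEs the IgG signal per kb was at least 2 times the median of typical enhancers, and 15 of these lay outside chromosomes 11 and 15. The part of this raised IgG signal in the results below was not tested.

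**Figure D1:**
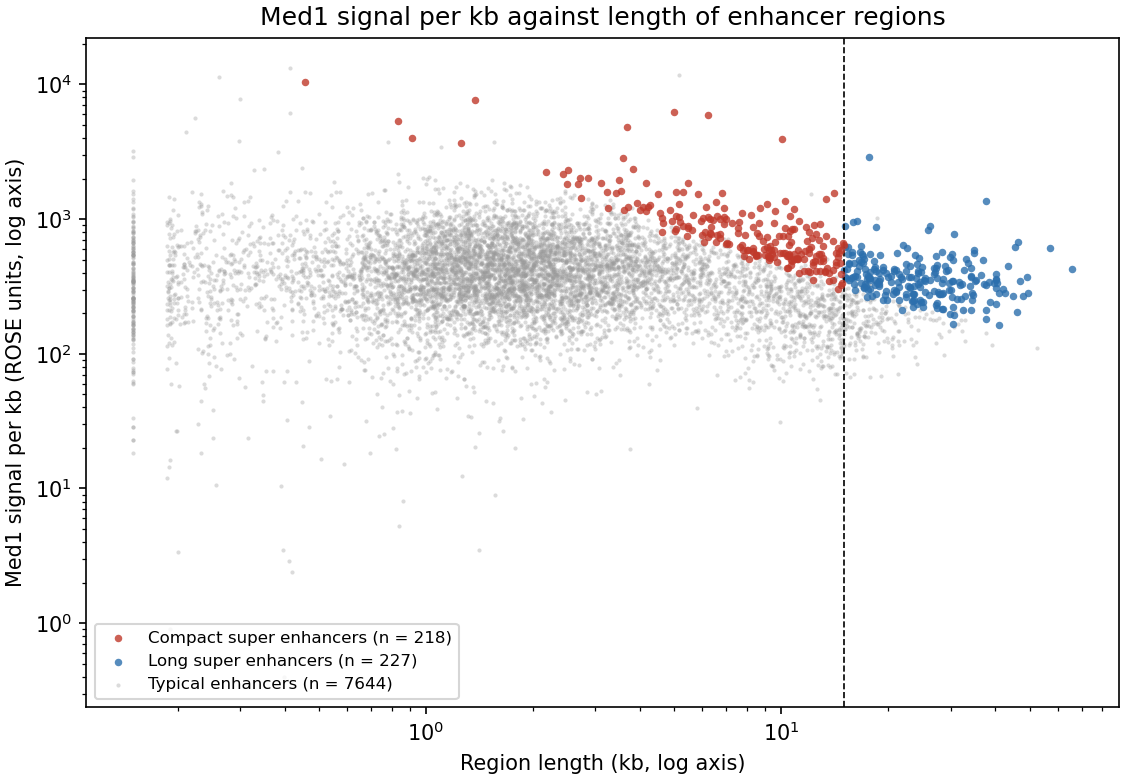
Region length in kb (horizontal, log axis) against Med1 signal per kb (vertical, log axis), with 1 point per region; the 218 compact SEs are red, the 227 long SEs blue and the typical enhancers grey, and the dashed line is the limit of 15 kb. Compact SEs have a median of 747 per kb, against 356 in long SEs and 359 in typical enhancers. Single typical enhancers reach up to 13190 per kb, above any compact SE, but IgG reaches 16961 per kb among typical enhancers. After subtracting IgG, the highest value is 5681 per kb in typical enhancers and 9228 in compact SEs. The 40 typical enhancers without Med1 signal are not drawn.

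Compact SEs were mostly single enhancers. Of the 218, 123 had 1 constituent (56.4%, 49.8 to 62.8%), 87 had 2 and 8 had 3 or more. Among long SEs 2.64% had 1 constituent, and among typical enhancers 86.4%. This share depends on length: it was 94.9% of the 39 compact SEs under 5 kb, 69.9% of the 93 from 5 to 10 kb and 24.4% of the 86 from 10 to 15 kb. Typical enhancers of those lengths had 1 constituent in 98.6%, 37.9% and 5.26%. From 5 kb upward, compact SEs were thus more often one unbroken Ep300 and H3K27ac region than typical enhancers of that length, and the intervals did not overlap. Constituents covered 77.8% of the summed length of compact SEs, 51.6% of long SEs and 70.9% of typical enhancers. The 123 single-constituent members had a median length of 6545 bp and a median Med1 signal per kb of 938, and the 95 others 11164 bp and 563.

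Most compact SEs held sites of Carm1 and Jmjd1c, whose lists the rule did not use. A Carm1 site overlapped 178 of the 218 compact SEs by at least 1 bp (81.7%, 76 to 86.2%), against 85.5% of long SEs (80.3 to 89.5%), 30.5% of typical enhancers (29.5 to 31.5%) and 33.4% of all regions. A Jmjd1c site overlapped 174 compact SEs (79.8%, 74 to 84.6%), against 85.9% of long SEs (80.8 to 89.8%), 36.2% of typical enhancers and 38.8% of all regions. The intervals of compact SEs overlap those of long SEs and lie far above those of typical enhancers. Both lists were called against the IgG sample that the rule also used. The names of the lists carry different values that look like p thresholds, with the stricter one for Jmjd1c, so shares of Carm1 and of Jmjd1c are not compared with each other.

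Sites of Med1, Carm1 and Jmjd1c together were found in 155 compact SEs (71.1%, 64.8 to 76.7%), against 76.7% of long SEs, 16.3% of typical enhancers and 19.4% of all regions. A Carm1 and Jmjd1c pair within 200 bp was found in 129 compact SEs (59.2%, 52.5 to 65.5%), against 65.6% of long SEs (59.2 to 71.5%), 17.4% of typical enhancers and 19.9% of all regions. Med1 sites, which come from the library that chose the members, were in 216 of the 218. The 2 compact SEs without one, near 9030025P20Rik and in an intron of Dlg4, a gene of a postsynaptic scaffold protein, held Carm1 and Jmjd1c sites. No compact SE was without a site of any of the 3 factors, a count of 0 of 218 with a Wilson upper bound of 1.73%. The same held for the 227 long SEs, while 34.8% of typical enhancers and 32.8% of all regions had no site.

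**Figure D2:**
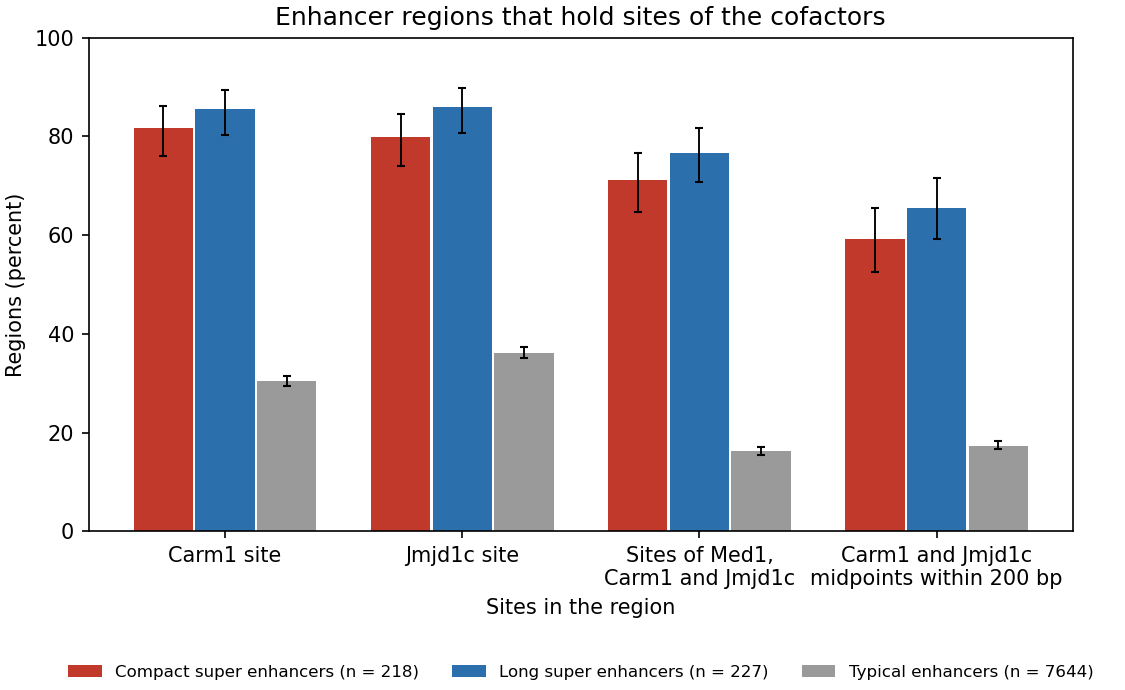
Percent of regions (vertical) that hold a Carm1 site, a Jmjd1c site, sites of all 3 factors, or a Carm1 and a Jmjd1c midpoint within 200 bp; bars are compact SEs (red), long SEs (blue) and typical enhancers (grey), with 95% Wilson intervals over regions. Compact SEs stand at 81.7, 79.8, 71.1 and 59.2%, close to long SEs and above typical enhancers at 30.5, 36.2, 16.3 and 17.4%.

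Longer regions have more room for a site, so the shares were also compared within length classes. Under 5 kb, a Carm1 site was in 74.4% of compact SEs (58.9 to 85.4%) and 26.9% of typical enhancers (25.8 to 28%), though the median lengths within this class still differed, at 3574 and 1494 bp. From 5 to 10 kb the Carm1 shares were 79.6% (70.3 to 86.5%) in compact SEs and 47.2% (43.4 to 51%) in typical enhancers. From 10 to 15 kb they were 87.2% (78.5 to 92.7%) in compact SEs and 49.6% (44.5 to 54.7%) in typical enhancers. Jmjd1c gave 76.9, 75.3 and 86% in compact SEs of the 3 classes and 32.6, 48.9 and 59.8% in typical enhancers. In each class the compact SEs lay above the typical enhancers for both factors, by between 26.2 and 47.5 percentage points, and no interval overlapped. Med1 signal per kb was 4.15, 2.6 and 2.82 times and IgG signal per kb 2.2, 1.55 and 1.71 times that of the typical enhancers of the class, and the part of either signal in the shares of sites was not tested.

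**Figure D3:**
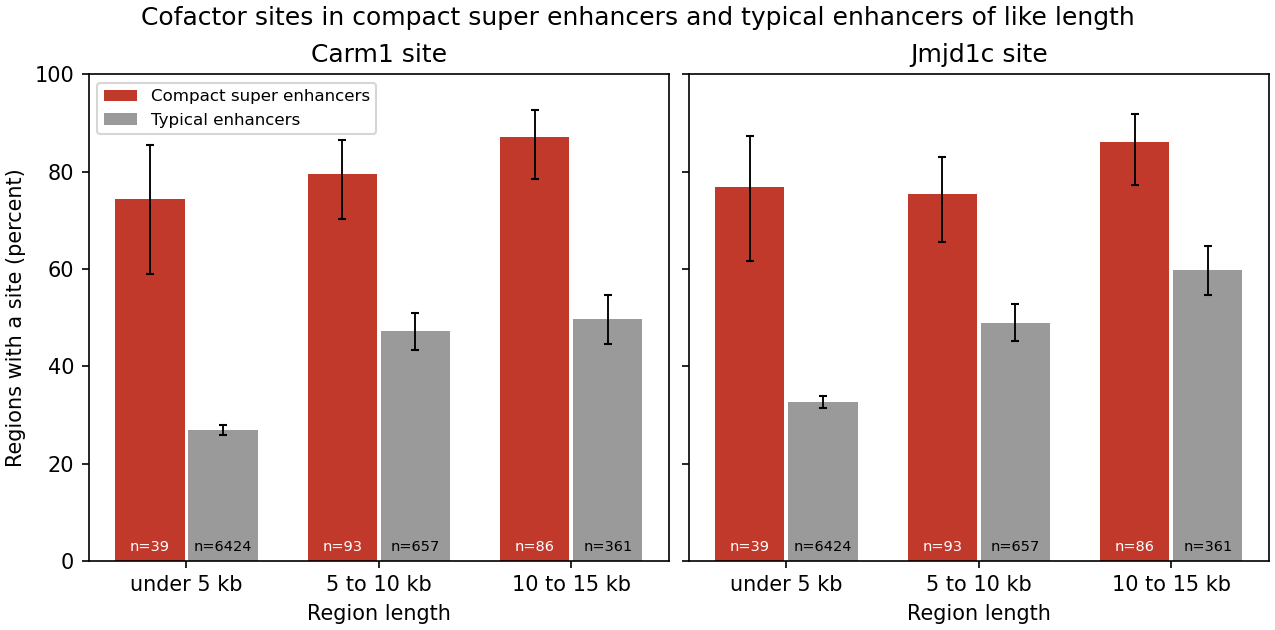
Percent of regions with a Carm1 site (left) or a Jmjd1c site (right) in 3 classes of region length; red bars are compact SEs and grey bars typical enhancers, with 95% Wilson intervals over regions and the number of regions in each bar. Compact SEs lie above typical enhancers in every class, for example 79.6% against 47.2% for Carm1 from 5 to 10 kb.

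Counted per length, compact SEs held more cofactor sites than long SEs, but the 2 groups are split by length and site density fell with length. Carm1 had 229 site midpoints in compact SEs, or 1.22 per 10 kb, against 0.62 in long SEs and 0.992 in typical enhancers. Jmjd1c had 234, or 1.25 per 10 kb, against 0.657 in long SEs and 1.19 in typical enhancers. Among compact SEs these densities were highest under 5 kb, at 2.38 and 2.61 per 10 kb, against 1.54 and 1.87 in typical enhancers under 5 kb. From 5 to 10 kb they were 1.23 and 1.22, against 0.763 and 0.793 in typical enhancers. From 10 to 15 kb they were 1.07 and 1.1, against 0.45 and 0.602. Constituents covered 77.8% of the length of compact SEs and 51.6% of that of long SEs. The part of length and of constituent cover in the gap between compact and long SEs was not tested. A second Carm1 site was nevertheless uncommon: 51 compact SEs (23.4%) had 2 or more, against 48.5% of long SEs and 2.04% of typical enhancers. For Jmjd1c the shares with 2 or more were 24.8% of compact SEs, 54.2% of long SEs and 2.85% of typical enhancers.

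Carm1 and Jmjd1c sites in compact SEs were wider than in typical enhancers, and most overlapped a Med1 site. Of the Carm1 sites 97.4% overlapped a Med1 site in compact SEs (94.4 to 98.8%), against 94.2% in long SEs and 70.2% in typical enhancers, and of the Jmjd1c sites 96.2%, 93.8% and 68.5%, in the same order. Med1 sites come from the library that chose the members and were in 99.1% of compact SEs and 51.3% of typical enhancers, so these overlaps are a description and not a result independent of the rule. Median widths of Carm1 sites were 353 bp in compact SEs (325 to 378 bp), 330.5 bp in long SEs and 298 bp in typical enhancers. Jmjd1c sites had 394 bp (371 to 432 bp) in compact SEs, 368 bp in long SEs and 340 bp in typical enhancers. Med1 sites covered a median of 52% of the length of a compact SE. The middle 50% of the length of the region held 52% of the Carm1 sites of compact SEs (45.5 to 58.4%), against 34.3% in long SEs and 69.3% in typical enhancers, and 48.3% of the Jmjd1c sites, against 38.3% and 68.5%. The 2 midpoints of a pair lay a median of 59.5 bp apart in compact SEs, 60.5 bp in long SEs and 57 bp in typical enhancers.

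The compact SEs with most cofactor sites were not those of highest signal. The 5 with the most Carm1 and Jmjd1c sites together ranked from 248 to 418 of all regions, and 4 of them lay more than 100 kb from the nearest protein-coding TSS. The region near Ankrd55 on chromosome 13, from 112949010 to 112960151, held 3 Carm1 and 3 Jmjd1c sites in 3 pairs, with a Med1 signal per kb of 588. The region nearest to Atp11b, a phospholipid flippase gene on chromosome 3, also held 3 of each. An intronic region of Plxna2, which encodes a semaphorin receptor, held 2 Carm1 and 3 Jmjd1c sites, as did a region near 4933422A05Rik on chromosome 9.

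In 23 compact SEs (10.6%, 7.13 to 15.3%) Med1 had a site and neither Carm1 nor Jmjd1c did. Sites of Med1 alone were in 5.29% of long SEs (3.05 to 9.01%), 19.2% of typical enhancers and 18.6% of all regions. A further 34.8% of typical enhancers had no site of any factor. A Carm1 or Jmjd1c site was in 89.4% of compact SEs, 94.7% of long SEs and 46% of typical enhancers. The 23 compact SEs had a median Med1 signal per kb of 647 (557 to 809), against 759.6 (679 to 848) in the 195 others. Median lengths were 9022 and 8641 bp. The highest in signal lay near Kdm6b, a histone H3K27 demethylase gene on chromosome 11, with Med1 and IgG signals of 9598 and 2004 and 3 Med1 sites. Others lay near Scd2, Msl1, a subunit of a histone acetyltransferase complex, Tob1, an antiproliferative gene, and Aurkb, the mitotic Aurora B kinase. Feedback phosphatase genes of MAP kinase signalling, Dusp6 and Dusp1, and the transcription factor genes Id3 and Sall1 also had such a region, as had 2 regions nearest to Zbtb20. Another 21 compact SEs (9.63%) held Med1 and Carm1 without Jmjd1c, against 8.81% of long SEs, 6.2% of typical enhancers and 6.37% of all regions. Med1 and Jmjd1c without Carm1 were in 17 (7.8%), against 9.25%, 9.64% and 9.58%, in the same order. The interval of compact SEs was 6.39 to 14.3% for the first of these 2 shares, just above the share of all regions, and 4.93 to 12.1% for the second, which contains it. The share with a Carm1 site was 79.5% of the 146 compact SEs with a Med1 minus IgG signal below 5000, 83.6% of the 55 from 5000 to 8000 and 94.1% of the 17 above, with overlapping intervals.

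The highest compact SEs were 3 neighbouring regions on chromosome 11 within introns of Tex14, a germ cell gene, which the study assigns to the DNA repair gene Rad51c. They ranked 3, 4 and 5 of all regions. These 3, and the regions of ranks 11, 13 and 44 named next, contain genes of U RNAs, whose near-identical copies make the signal of a single copy, and with it the rank, uncertain. The region from 87275110 to 87285154 had Med1 and IgG signals of 39740 and 3461, with 2 Carm1 and 2 Jmjd1c sites. The region from 87256127 to 87262339 had Med1 and IgG signals of 36854 and 3573, and the region from 87235422 to 87240416 had Med1 and IgG signals of 30996 and 2549. The next compact SEs lay near Kif2c at rank 11, Sirt4, a mitochondrial sirtuin gene, at rank 13, Bahcc1 at rank 18 and D330050G23Rik at rank 31. Rank 41 was a region of chromosome 3 that the study assigns to Nes, the gene of the NSC intermediate filament Nestin. Ranks 44 and 49 lay near Parp16 and Zmiz1, and rank 53 was an intronic region of Slc1a3.

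Nearly all of the 10 densest compact SEs held genes of U RNAs, which are small nuclear or nucleolar RNAs. Among the 20 densest the number was still 9. One of them was the 1377 bp region near Parp16 with a U5 gene, at 7671 Med1 and 551 IgG per kb. Of the 10 compact SEs with the highest Med1 signal per kb, 9 contained a gene named U1 to U6, and the exception was an intronic region of Srebf1, the gene of the lipid regulator SREBP1, at 2844 per kb. U1, U2, U4, U5 and U6 are RNAs of the spliceosome and U3 acts in ribosomal RNA processing. Such genes lay in 12 of 218 compact SEs (5.5%, 3.18 to 9.37%), in 3.52% of long SEs (1.8 to 6.8%) and in 0.105% of typical enhancers (0.053 to 0.206%), a count made after the values were seen. As said of the highest ranks, their copies are near-identical, and the authors kept the best alignment of a read with several, so the signal of a single copy is uncertain. The 206 other compact SEs had a median Med1 signal of 728 per kb.

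The 5 least dense compact SEs were all longer than 13 kb, at 240.1 to 260.1 Med1 minus IgG signal per kb, and included regions near Tbc1d10a, Fnbp1, Gm766 and Zcchc13. All 5 held Carm1 and Jmjd1c sites. The 3 compact SEs nearest to the length limit, near Ier5l, Elp6 and Apobec2, were 14975, 14900 and 14833 bp long, and the 3 long SEs next to it, near Sox2, Sez6 and Tst, were 15045, 15119 and 15148 bp. The 3 nearest to the signal limit, at 5031425E22Rik, Gm4262 and Tsc22d4, had a Med1 minus IgG signal of 3257, 3276 and 3282. The 3 regions just below it, near 1810011O10Rik, Pabpc6 and Slc35b1, had 3249.8, 3242 and 3241. Each of these 6 regions around the signal limit held a Carm1 site, and 5 of them a Jmjd1c site.

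Compact SEs were unevenly spread over the chromosomes. Chromosome 11 held 46 of them (21.1%, 16.2 to 27%), which was 9.26% of its 497 regions (7.01 to 12.1%), and chromosome 15 held 17, or 4.64% of 366. Over the other autosomes the share was 2.16% of 7122 regions (1.85 to 2.53%). The IgG signal was also highest on chromosomes 11 and 15: its median per kb in typical enhancers was 203 on chromosome 11, 172 on chromosome 15 and 127 on the other autosomes. Among these others, chromosomes 14 and 17 had shares of 3.94% (2.32 to 6.62%) and 4.18% (2.41 to 7.16%), at IgG medians of 125 and 119. Within compact SEs the median IgG signal per kb was 259.6 on chromosome 11, 209.8 on chromosome 15 and 148 elsewhere, and the median Med1 signal per kb was 1046, 921 and 646. After the Med1 minus IgG signal was scaled by the IgG level of the chromosome, 207 regions met both limits, of which 186 were among the 218, and chromosome 11 held 8.7% of them. Without chromosomes 11 and 15, 155 compact SEs remained, with Carm1 sites in 79.4% and Jmjd1c sites in 78.1%, against 29.9% and 35.2% of the typical enhancers left.

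**Figure D4:**
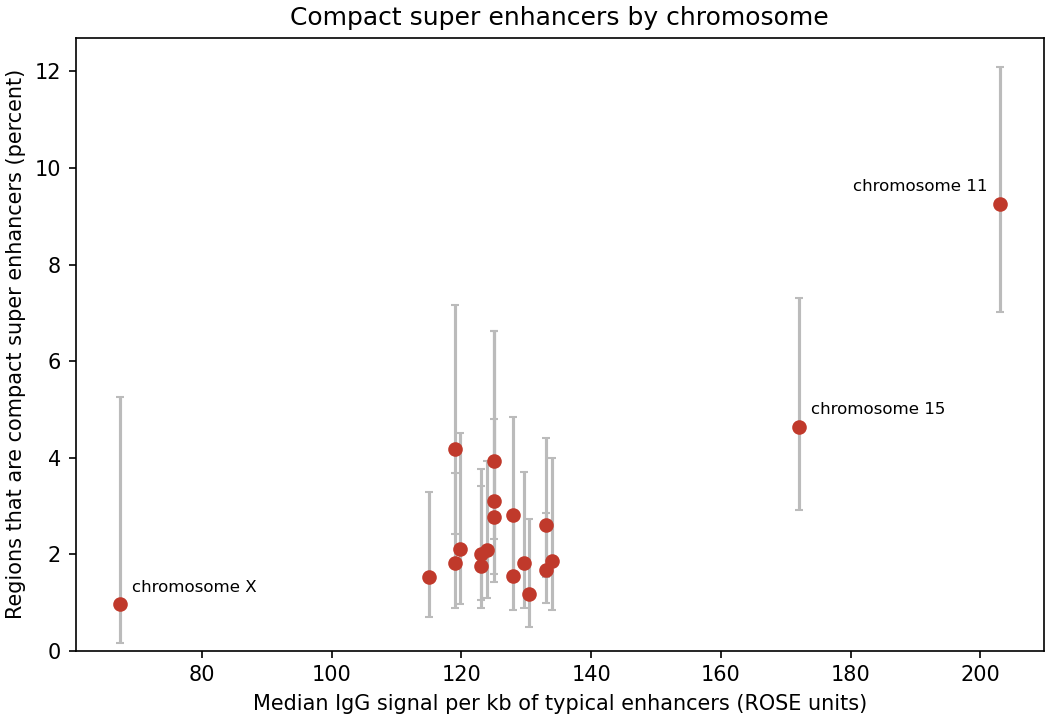
Median IgG signal per kb of the typical enhancers of each chromosome (horizontal) against the percent of its regions that are compact SEs (vertical), with 1 point per chromosome and 95% Wilson intervals. Chromosome 11, at 203 and 9.26%, and chromosome 15, at 172 and 4.64%, stand to the right of all others.

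The middle of compact SEs lay closer to the start of a protein-coding gene than that of typical enhancers, but less often inside a gene. The median distance from the middle of the region to the nearest protein-coding transcription start site (TSS, the 5′ end of the gene) was 32026 bp in compact SEs (26580.5 to 38274 bp), 41200.5 bp in long SEs (36176 to 49493 bp) and 49684 bp in typical enhancers (47736 to 51256 bp). The intervals of compact and long SEs overlap, and those of compact SEs and typical enhancers do not. A TSS within 10 kb was found for 19.3% of compact SEs (14.6 to 25%), 8.37% of long SEs (5.42 to 12.7%) and 13.9% of typical enhancers (13.2 to 14.7%). Since distances run from the middle and long SEs have a median length of 23912 bp, much of this 10 kb can lie inside a long SE. The part of region length in these shares was not tested. The middle of 43.6% of compact SEs lay inside a protein-coding gene (37.2 to 50.2%), against 49.8% of long SEs and 52.7% of typical enhancers (51.5 to 53.8%). By annotation, 123 middles were intergenic, 83 intronic and 12 exonic. Another SE lay within 50 kb of 48 compact SEs (22%, 17 to 28%), against 14.1% of long SEs (10.2 to 19.2%). A nearest active gene is also named for each region. For 128 compact SEs it was the nearest protein-coding gene of the annotation.

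Several genes were nearest to more than 1 compact SE. Sipa1l1, a gene of a synaptic scaffold protein, was nearest to 3, on chromosome 12, and Tex14 to the 3 assigned to Rad51c. By the study's assignment Scd2 had 3 on chromosome 19, separated by gaps of 30385 and 24832 bp. They ranked 104, 114 and 138, with Med1 signals per kb of 1577, 1598 and 1538 and IgG signals of 170, 306 and 123, and held 1 Jmjd1c site, 1 site of each cofactor, and none. Pairs of compact SEs were nearest to Etv5, Id3, Klf12, Tob1, Zbtb20 and Zmiz1, to Acot11, Cstad and Egln3, and to 1110067D22Rik, A130050O07Rik, Gm11084, Gm11733 and Gm16382. The study further assigns 2 each to Npas3, Sp3, Spry2, Ier3, Eapp, Lgalsl, Mir181a-1 and 4930572O13Rik. Paired regions could differ in their sites: at Klf12, rank 166 had 2 Carm1 and 2 Jmjd1c sites and rank 230 had 1 of each, and at Etv5, rank 88 had 2 of each and rank 217 had 1 Jmjd1c site.

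Genes of 13 lists, 146 genes in all, were looked up among the nearest genes. Of 145 list genes in the annotation, 26 were nearest to a compact SE, against 0.89% of all 22238 protein-coding genes, and 30 by the study's assignment. The lists were written with earlier results of these data known, so this count is not independent evidence. Some lists had no gene nearest to a compact SE. They were endothelium, microglia and mesoderm (9 genes), pluripotency (7), astrocytes (8) and the oligodendrocyte lineage (10). Lists this short can hold none at the share of all protein-coding genes, so this absence is not read as a result. Of the same lists, Cspg4, Olig1 and Aldh1l1 were nearest to a long SE.

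Of 14 genes of NSCs and radial glia, 5 were nearest to a compact SE and 3 to a long SE. The 3 were Msi2, Notch1 and Sox2, so Msi2 and Notch1 were nearest to SEs of both kinds. Nes, by the study's assignment, had Med1 and IgG signals of 12840 and 2544 over 10846 bp of chromosome 3, from 87784757 to 87795603, with 2 Med1 sites, 1 Carm1 site and no Jmjd1c site. By distance Bcan, a brain proteoglycan gene, was nearer. The Slc1a3 region, 12854 bp of an intron on chromosome 15, had Med1 and IgG signals of 11839 and 2994, with a site of each cofactor in 1 pair. Notch1, the receptor that keeps NSCs undifferentiated, had an intronic region of 4556 bp with Med1 and IgG signals of 5074 and 720.5 and 1 Jmjd1c site. Ptprz1, a receptor phosphatase of radial glia, had Med1 and IgG signals of 4797 and 636 with 1 pair. Msi2, an RNA-binding protein of stem cells, had an intronic region with 1 Jmjd1c site, and Sox9, a glial and NSC transcription factor, had one at 405176 bp with 1 pair. Each of these 6 regions held a Carm1 or a Jmjd1c site.

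Growth factor feedback genes were next. EGF and FGF2 keep NSCs in culture dividing. Of the 14 genes of this signalling, 3 were nearest to a compact SE, with Spry2 added by the study's assignment. The first Etv5 region, in an intron of Dgkg, had Med1 and IgG signals of 9612 and 1954, and the second had Med1 and IgG signals of 6045 and 1155. Fgfr1, an FGF receptor, had Med1 and IgG signals of 4328 and 372 with 1 Jmjd1c site. Dusp6, a phosphatase that shuts off ERK, had Med1 and IgG signals of 4775 and 1064 and no cofactor site. The 2 regions given to Spry2, an inhibitor of receptor tyrosine kinase signalling, had Med1 and IgG signals of 8604 and 1925 with 1 pair, and of 7007 and 1704 with 1 site of each cofactor but no pair.

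Of 12 cell division genes, 5 were nearest to a compact SE. Kif2c had Med1 and IgG signals of 21820 and 2634 with 2 pairs, and its region contains 2 U5 genes. Mki67 had Med1 and IgG signals of 6836 and 1227 with 1 Carm1 and 2 Jmjd1c sites at a distance of 331580 bp. Tmpo, a nuclear lamina gene, had Med1 and IgG signals of 8082 and 1788. Aurkb had Med1 and IgG signals of 7571 and 2691, the lowest ratio of Med1 to IgG among the members near list genes except Sox9, and Mxd3, a MAX partner, had signals of 4897 and 1229.9, both without a cofactor site. Among 14 immediate early and growth arrest genes Btg2, Dusp1, Ier3 and Tob1 were nearest, and Cdkn1a was added by the study. Btg2 had Med1 and IgG signals of 10556 and 1877 with 2 pairs, and Dusp1 had signals of 3919 and 429.9 with no pair.

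Of 13 lipid synthesis genes, Scd2, Srebf1 and Elovl5 were nearest to a compact SE and none to a long SE. All 5 regions at these genes were under 6 kb. The Srebf1 region, which the study assigns to Mir6922, had Med1 and IgG signals of 10165 and 1462 over 3574 bp. Elovl5, a fatty acid elongase, had Med1 and IgG signals of 5489 and 805 over 2722 bp with 2 Jmjd1c sites. Among 12 Kruppel-like and Sp factors Klf12 and Klf3 were nearest, and Sp3 by the study. Of the 13 Notch targets and Id factors Id3 and Notch1 were nearest, and the Id3 regions had Med1 and IgG signals of 5748 and 1602 with 1 pair, and of 4073 and 407 with no cofactor site. The second Id3 region contains a U6 gene, so its signal is uncertain, as said of the other U RNA genes. Among 18 neural transcription factors, 2 were nearest to a compact SE, Sall1 and Sall3, and 5 to a long SE, namely Nfia, Nfib, Olig1, Sox2 and Tcf4. Npas3, Pou3f1 and Zeb1 came in by the study's assignment. Of the neuron list, 1 of 9 annotated genes, Snap25, was nearest, with Med1 and IgG signals of 5688 and 1397 and no cofactor site.

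**Figure D5:**
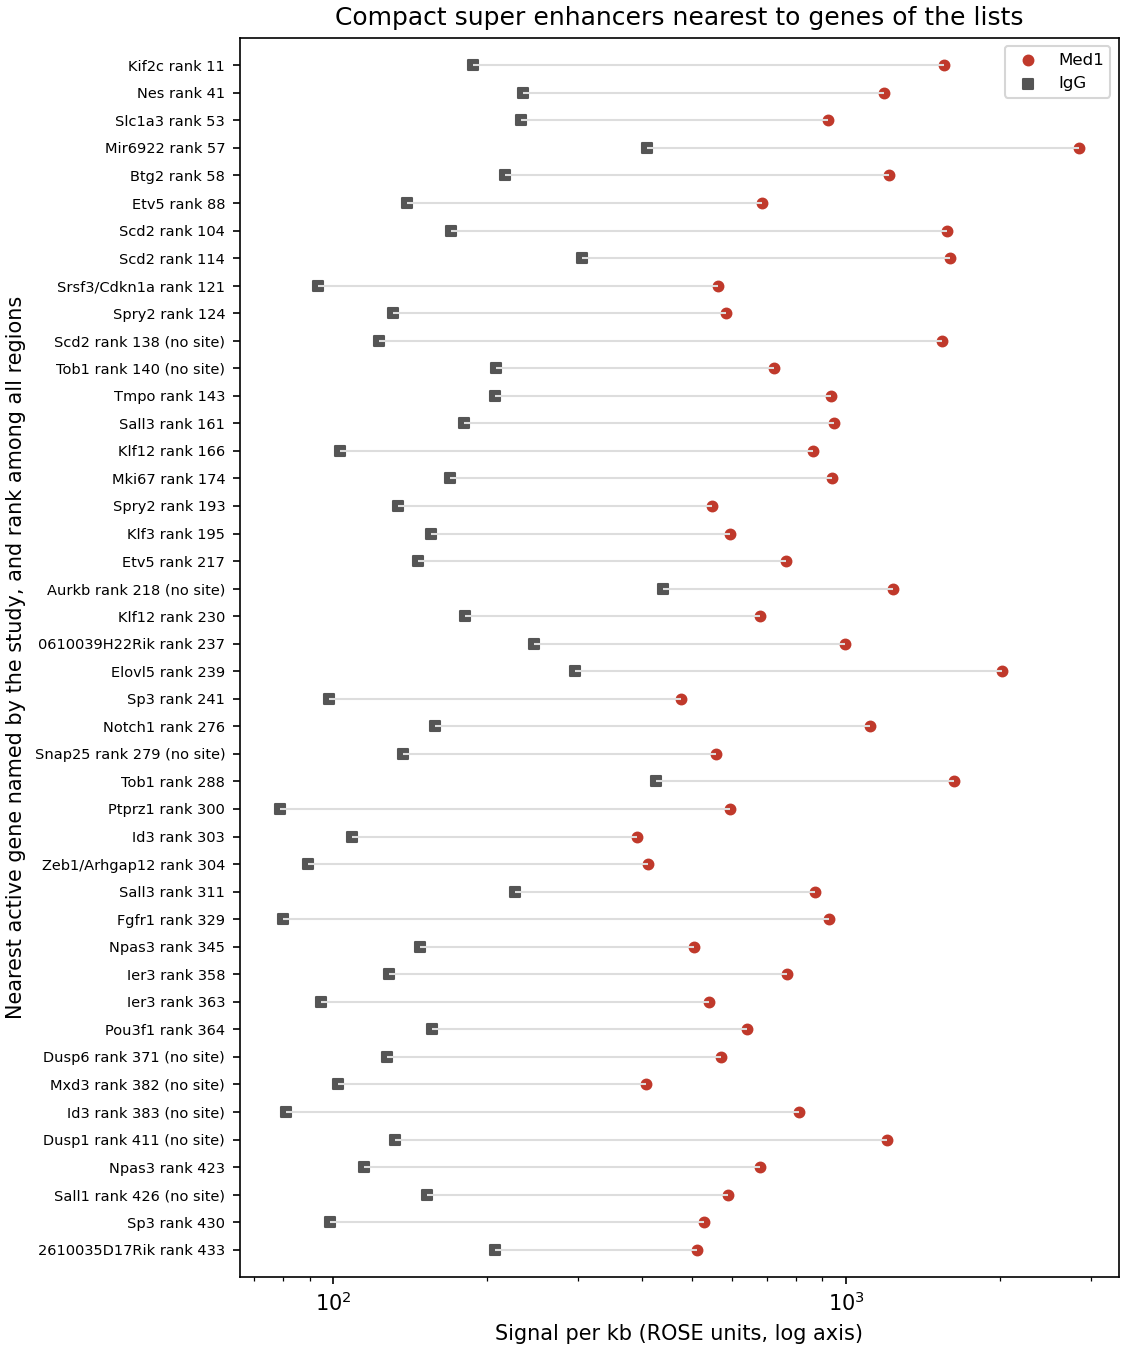
Med1 signal per kb (red circles) and IgG signal per kb (grey squares) on a log axis for the 44 compact SEs nearest to a gene of the lists by annotation or by the study, in order of rank and named by the study's nearest active gene; "no site" marks the 9 without a Carm1 or Jmjd1c site. Med1 exceeds IgG in each, by a factor of at least 2.47.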

How the data were processed

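Chromatin of NS-5 cells was precipitated with antibodies against Med1, Carm1 and Jmjd1c, or with IgG. The authors mapped reads to mm9 with Bowtie 0.12.7, keeping the best alignment of a read with several, merged replicates where there were several, removed duplicates (the notes name Picard 1.81) and called sites with MACS 1.4.2 against IgG. The methods name default settings, while the names of the Carm1 and Jmjd1c lists carry 2 different values that look like p thresholds, so the 2 lists may be cut differently, which was not settled. Whether a sample pools cultures was not settled either. Read totals, and so the depth, are unknown. The deposited ROSE table gives the signal of Med1 and of IgG for each region, as described above, and its flag marks 445 regions as SEs. The authors left out peaks next to a TSS when running ROSE.

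Site starts were written from 1. The NCBIM37 genome and GENCODE vM1 annotation carry mm9 coordinates, and all positions lie within its chromosome lengths. Intervals are 95% Wilson intervals for shares and binomial order-statistic intervals for medians. They cover the counting of regions or sites in 1 sample only. Values were computed with Python 3.11.15, numpy 2.4.6, pandas 2.3.3, scipy 1.17.1 and pysam 0.24.0, and figures with matplotlib 3.10.9. The functions were tested on simulated data, where 12 of 12 checks gave the known answers or lay within the limits set. The supplementary gene names of the study were used for nearest active genes only.

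The members, the lists and the motifs were chosen with earlier results of these data known. Regions named are the 10 of highest signal, the 10 of highest and 5 of lowest Med1 minus IgG signal per kb, the 5 shortest, the 5 with most cofactor sites, those next to the limits, those sharing a nearest gene and those at list genes. Some regions that this rule names are not reported here. Members with Med1 sites alone and U RNA genes were named after their values were seen. Alternatives changed the length and signal limits, the overlap, the pair distance, the motif window, the gene set and the regions included.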

Additional observations from a re-analysis of the deposited data

How the results depend on the processing

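No paired analysis was possible because each antibody has 1 sample, so that no replicate can be left out either. Of 80 alternative settings over 16 results, 60 stayed within the interval of the reported value, or within 1.5 times a count. Of these 80, 5 were added after the values were seen, without the 12 members that hold a U RNA gene, and all 5 stayed within it (728 Med1 signal per kb, Carm1 82%, Jmjd1c 80.6%, all 3 factors 71.8%, pairs 60.7%).

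A length limit of 10 kb gave 132 members, a median Med1 signal per kb of 944, all 3 factors in 64.4%, pairs in 52.3%, 1.41 Carm1 and 1.44 Jmjd1c sites per 10 kb and 1 constituent in 77.3%. A limit of 20 kb gave a Med1 signal per kb of 605, 1.07 Jmjd1c sites per 10 kb and 1 constituent in 43.8%. The Med1 signal per kb was 646 without chromosomes 11 and 15, 579 after subtracting IgG and 978 per kb of constituents. Pairs were found in 42.7% within 100 bp and in 66.5% within 500 bp. The TSS of a gene of any biotype was 15008 bp away at the median. Dividing by the IgG level of the chromosome left 8.7% on chromosome 11. With 50 bp on either side of the pair, the SOX motif was in 25.9%, the E-box in 40.1% and the NFI core in 39.5%, windows that are shorter by construction.

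The limits are that 1 sample per antibody gives no replicate error, that depth is unknown, that lists of sites hold no heights or summits, and that members and comparison regions differ in Med1 and IgG signal by the rule. The part of the raised IgG signal on chromosomes 11 and 15 in the Med1 signal was not tested. A nearest gene is a position and not a target.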
